A study of Homo sapiens with 6 samples.

Results

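Lysosome and autophagy genes were followed in A549, a human lung cancer cell line, transfected with siRNAs that target MYEOV, a gene named for its overexpression in myeloma. The group was defined by 37 gene symbols chosen for their roles, with earlier results of these data known. They were lysosomal enzymes and membrane proteins, subunits of the proton pump, the TFEB family of transcription factors and the core autophagy machinery. A row of the array table carried one of these symbols for 26 of the 37 genes, of 14884 named genes in all. No row was named for GLA, GLB1, GAA, NPC1, NPC2, the 3 proton pump subunits ATP6V0D1, ATP6V1A and ATP6V1H, BECN1, WIPI1 and WIPI2, and these 11 were not analysed here. The 6 arrays fell into 3 groups of 2, from cells given siMYEOV #1 (called siRNA 1 here), cells given siMYEOV #2 (siRNA 2) and cells given the control siRNA siNC (control). All cells were transfected with Lipofectamine RNAiMAX and lysed 48 hours later, so the transfection reagent is common to all 3 groups. The labels do not say whether the 2 arrays of a group came from separate transfections. The p-values below therefore reflect only how far these arrays lie apart, which may be technical variation. The siRNA sequences were not used here.

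Lysosomes are acidic organelles in which hydrolases break down material delivered by endocytosis and by autophagy. In autophagy, a kinase complex around ULK1 and a lipid kinase complex that contains ATG14 start a membrane, a conjugation system attaches ATG8 proteins such as LC3 to it, and cargo receptors such as SQSTM1 bring in what is to be degraded. TFEB, TFE3 and MITF bind an E-box element, called CLEAR, in the promoters of many lysosomal and autophagy genes, and are held in the cytoplasm when mTORC1 is active at the lysosome.

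Values are log2 signals made by the authors with RMA, which corrects background, equalises arrays and combines the probes of a transcript, and a difference of 1 on this scale is a doubling of signal. Limma was run on the 7442 genes whose mean over the 6 arrays reached 5.45, which is the middle of the named genes' means, and "called" means an adjusted p (Benjamini-Hochberg) under 0.05. Of the 26 members, 23 passed this filter, and MAP1LC3B, MITF and TFEB lay below it. With 2 arrays against 2, the smallest two-sided p of an exact permutation test is 0.333, and calls depend on the spread that limma borrows from other genes. MYEOV itself had signals of 5.34 and 5.19 with siRNA 1 and of 5.23 and 4.70 with siRNA 2, against 6.20 and 6.50 in control cells. Of the 5 epithelial markers listed for a check of the cell line's label, 4 had a row, and all 4 were above the filter, with array values from 6.45 upward, whereas all 5 measured markers of fibroblasts, leukocytes and endothelium were below it, with no array above 4.66.

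The promoters of the 4 members called among the filtered genes, of LAMP1, which holds the most copies of the core of the CLEAR element, and of MCOLN1, one of several members with 2 copies of this core, are shown because the TFEB family acts through the CLEAR element. The RefSeq table of promoters (GRCh38.p14, 250 bases before to 50 after a transcript start, hence 300 bases) matched 30 of the 37 symbols, 21 of them with an array row. The CLEAR core TCACGTG, searched on both strands, which contains the E-box CACGTG, was present for 8 of the 30 members (26.7%), for 6 of the 21 with a row (28.6%), for 17.6% of 136 other lysosome and autophagy genes and for 4.49% of 27305 genes in the table. The E-box, with or without the flanking T, was present for 8 of the 30 members, for 21.3% of the other pathway genes and for 8.77% of all genes. Member promoters had a median GC content of 69.0%, against 58.7% for the whole table, and the part of base composition in these shares was not tested. Capitals mark CACGTG with a flanking T or A where it completes the core. ATG14 is from chr14:55411781-55412080, minus strand, with a core 21 bases before the start. MCOLN1 is from chr19:7522374-7522673, plus strand, with 2 copies, and LAMP1 is from chr13:113296989-113297288, plus strand, with 6 copies. ATG16L1 is from chr2:233251423-233251722, plus strand, ATG5, by the first of its windows, from chr6:106325388-106325687, minus strand, and CTSL from chr9:87725869-87726168, plus strand, and no CACGTG was found in these 3 windows. The windows of MITF, which was tested only with no filter, held no CACGTG either and are not shown.
ATG14: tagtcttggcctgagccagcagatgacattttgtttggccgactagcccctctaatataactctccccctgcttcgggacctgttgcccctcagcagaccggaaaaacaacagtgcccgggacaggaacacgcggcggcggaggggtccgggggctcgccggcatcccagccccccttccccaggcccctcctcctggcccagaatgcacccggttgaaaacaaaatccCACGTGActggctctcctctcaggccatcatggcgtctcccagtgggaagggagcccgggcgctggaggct
MCOLN1: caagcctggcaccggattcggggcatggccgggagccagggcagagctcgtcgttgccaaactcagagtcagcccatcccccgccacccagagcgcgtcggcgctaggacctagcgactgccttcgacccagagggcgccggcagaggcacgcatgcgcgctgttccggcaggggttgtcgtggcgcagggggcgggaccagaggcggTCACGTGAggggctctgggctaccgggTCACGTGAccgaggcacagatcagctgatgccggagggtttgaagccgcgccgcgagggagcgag
LAMP1: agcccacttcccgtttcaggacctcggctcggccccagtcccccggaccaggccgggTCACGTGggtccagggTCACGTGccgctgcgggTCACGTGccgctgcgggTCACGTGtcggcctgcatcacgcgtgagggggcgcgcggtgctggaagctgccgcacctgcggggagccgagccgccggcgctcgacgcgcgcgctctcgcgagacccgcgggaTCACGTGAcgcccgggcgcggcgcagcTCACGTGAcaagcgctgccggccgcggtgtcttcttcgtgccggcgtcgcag
ATG16L1: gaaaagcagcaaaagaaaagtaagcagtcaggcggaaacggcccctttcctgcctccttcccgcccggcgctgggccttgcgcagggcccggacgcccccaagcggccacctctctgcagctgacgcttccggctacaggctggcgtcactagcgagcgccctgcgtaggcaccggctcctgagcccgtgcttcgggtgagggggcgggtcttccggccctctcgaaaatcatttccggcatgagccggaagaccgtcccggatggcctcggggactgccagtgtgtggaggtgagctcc
ATG5: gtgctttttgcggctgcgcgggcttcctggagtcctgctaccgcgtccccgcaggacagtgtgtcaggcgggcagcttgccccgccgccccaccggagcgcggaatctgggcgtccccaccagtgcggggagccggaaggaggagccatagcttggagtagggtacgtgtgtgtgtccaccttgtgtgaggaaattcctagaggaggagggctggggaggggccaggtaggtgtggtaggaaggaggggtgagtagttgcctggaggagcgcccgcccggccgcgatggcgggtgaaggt
CTSL: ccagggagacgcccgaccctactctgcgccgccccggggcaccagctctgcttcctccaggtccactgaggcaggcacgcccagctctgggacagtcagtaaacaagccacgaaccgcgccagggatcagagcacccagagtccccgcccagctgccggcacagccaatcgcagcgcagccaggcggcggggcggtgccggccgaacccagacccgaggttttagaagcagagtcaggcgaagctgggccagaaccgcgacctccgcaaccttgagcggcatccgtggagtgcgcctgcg

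Most members, like most genes tested, lay close to their control level with either siRNA. The members called against control were autophagy genes with siRNA 2: ATG14 fell by 57.3%, ATG5 fell slightly and ATG16L1 rose. Differences over 0.2 that were not called were those of ATG16L1 (0.30), MITF (0.26), CTSL (-0.23) and TFEB (-0.23) with siRNA 1 and of MITF (-0.44) and CTSL (0.27) with siRNA 2. With siRNA 1, 0 of the 23 tested members were called by limma, where 4.66% of the 7442 genes were (2.28% higher and 2.38% lower), and 3 members had an unadjusted p under 0.05, against 19.2% of all genes tested. With siRNA 2, 3 of 23 were called (13.0%), 1 higher and 2 lower, where 6.83% of all genes were called, 2.59% higher and 4.23% lower, and 5 had an unadjusted p under 0.05, against 22.2% of all genes. For the mean of both siRNAs against control, 2 of 23 were called (8.7%), 1 higher and 1 lower, where 5.42% of all genes were (2.55% higher and 2.86% lower), and 4 had an unadjusted p under 0.05, against 20.4%. Between siRNA 1 and siRNA 2, 2 of 23 were called, 1 in each direction, where 9.15% of all genes were (5.37% higher and 3.78% lower with siRNA 1), and 4 had an unadjusted p under 0.05, against 23.6%. The comparisons with control share the same 2 control arrays. With so few members the share called cannot be told from the share over all genes, and it is given as a description.

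The size of the differences gives the same picture. The median difference of the 26 members was -0.0060 with siRNA 1 and 0.0016 with siRNA 2, against 0.0024 and 0.0080 for all 14884 named genes. The median absolute difference was 0.064 with siRNA 1 and 0.057 with siRNA 2 among members, against 0.11 and 0.12 among all named genes. Among the 7442 genes that passed the filter, as 23 of the 26 members did, it was 0.097 and 0.10. Of the 26 members, 22 lay within 0.2 of control with siRNA 1 and 21 with siRNA 2, beside 78.8% and 75.6% of the 7442 genes tested. Among tested members that were not called, the 95% confidence interval reached at most 0.49 from 0 with siRNA 1 and at most 0.43 with siRNA 2. Signals of the 2 groups did not overlap for 9 of the 23 tested members with siRNA 1, 11 with siRNA 2 and 4 for both siRNAs together, where 48.8%, 50.6% and 22.9% of all genes tested did not. Between the siRNAs this held for 8 members and 54.5% of all genes tested.

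**Figure D1:**
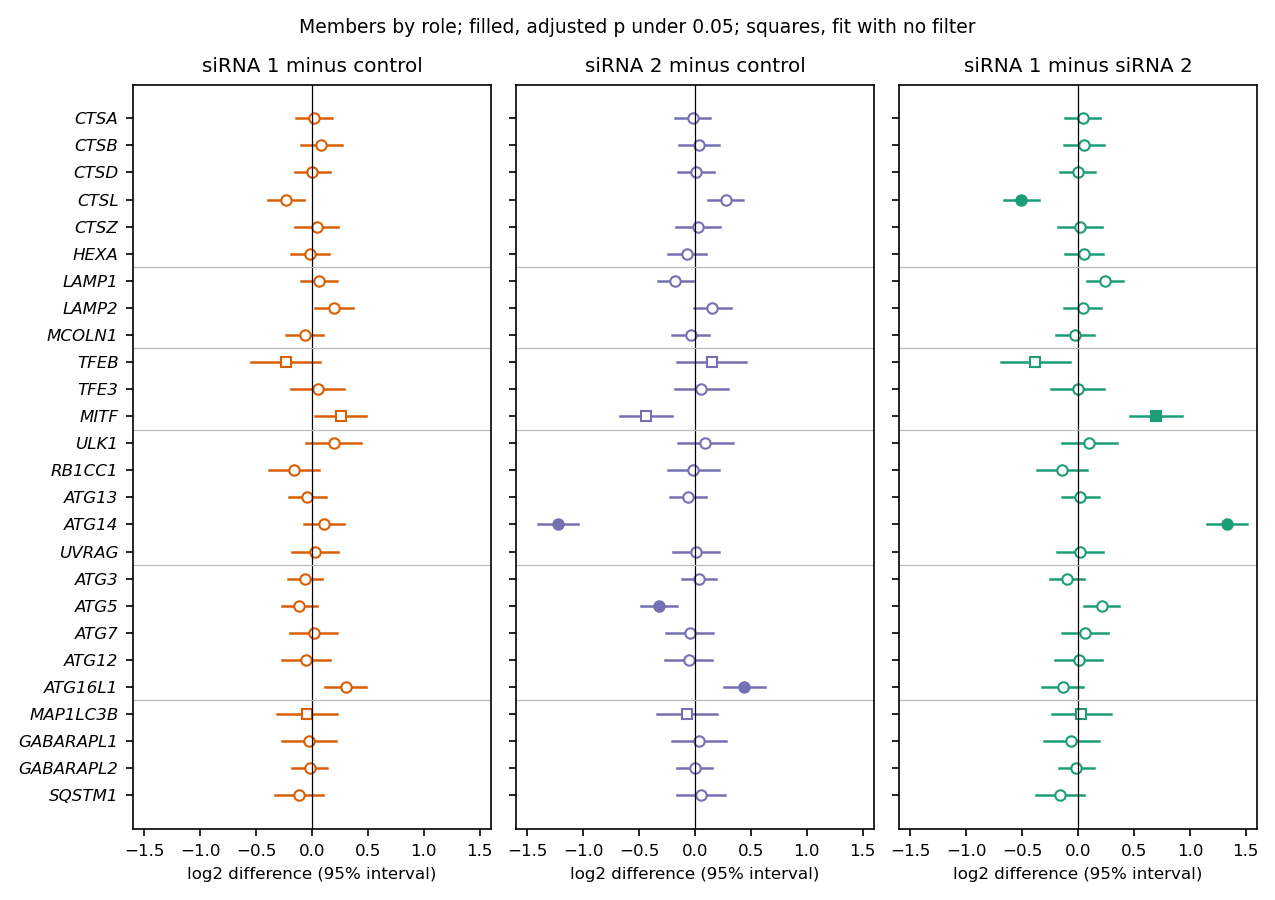
Differences in log2 signal for the 26 members, in order of role, with siRNA 1 minus control, siRNA 2 minus control and siRNA 1 minus siRNA 2; points are differences of group means (n = 2 arrays per group), bars are limma's 95% confidence intervals, filled points had an adjusted p under 0.05, and squares come from the fit with no filter. ATG14 at -1.23 with siRNA 2 stands apart from members that mostly lie within 0.2 of 0.

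Of the genes that start autophagosomes, ATG14, which directs the class III lipid kinase complex to the site of autophagosome formation, carried the largest change. Its signal was 7.37 and 7.29 with siRNA 1 and 5.94 and 6.05 with siRNA 2, against 7.25 and 7.19 in control cells. Both siRNA 2 arrays lay more than 1 log2 unit below the other 4, and the siRNA 1 arrays lay just above the control arrays. With siRNA 2, ATG14 fell by 57.3%, a log2 difference of -1.23 ± 0.075 (SE; 95% interval -1.40 to -1.05; limma, Benjamini-Hochberg adjusted p = 0.000312), the 16th largest fall of 7442 genes. With siRNA 1 the difference was 0.11 (interval -0.072 to 0.28, adjusted p = 0.514). The siRNAs differed from each other by 1.33 ± 0.075 (siRNA 1 minus siRNA 2, limma adjusted p = 0.000189), the 9th largest difference in that direction. Without each array in turn, the limma adjusted p of ATG14 with siRNA 2 lay between 0.00211 and 0.00529. The mean of both siRNAs against control gave -0.56 (limma adjusted p = 0.00638, and 0.0611 without control replicate 1), but that mean averages one siRNA with a fall and one without. As RNA came from whole cultures, less ATG14 RNA per cell and fewer cells expressing it cannot be told apart.

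The other members that start autophagosomes were not called in any of the 4 comparisons. The kinase ULK1 had 7.38 and 7.58 with siRNA 1 and 7.50 and 7.26 with siRNA 2, against 7.28 and 7.29 in control cells. Its siRNA 2 arrays lay on either side of both controls, and the difference was 0.19 with siRNA 1 and 0.093 with siRNA 2 (limma adjusted p = 0.382 and 0.675). RB1CC1, the scaffold of the ULK1 complex also known as FIP200, had 9.48 and 9.25 with siRNA 1 and 9.55 and 9.47 with siRNA 2, against 9.59 and 9.47 in control cells, and the groups overlapped. ATG13, which links ULK1 to RB1CC1, differed by -0.042 and -0.063 with siRNA 1 and siRNA 2, and UVRAG, which takes the place of ATG14 in the endosomal form of the lipid kinase complex, by 0.025 and 0.0074. For UVRAG with siRNA 2 the 95% interval ran from -0.20 to 0.21, which leaves out a difference as large as that of ATG14.

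**Figure D2:**
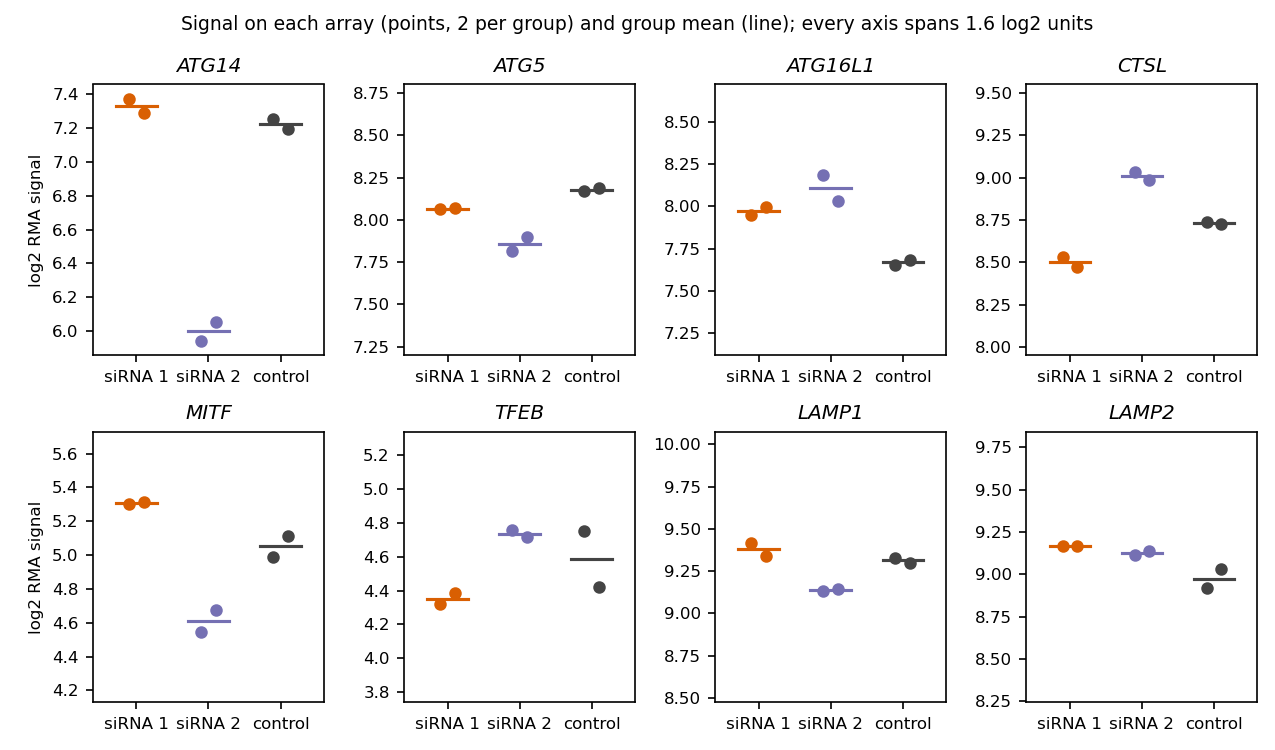
Log2 RMA signal of 8 members on each array, with siRNA 1 left, siRNA 2 in the middle and control right; points are arrays (2 per group), lines are group means and each axis spans 1.6 log2 units. ATG14 is at 5.94 and 6.05 with siRNA 2 and above 7.1 on the other 4 arrays, ATG16L1 is above control with both siRNAs, and CTSL and MITF lie on opposite sides of control with the 2 siRNAs.

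In the conjugation system that attaches ATG8 proteins to the membrane, ATG16L1 rose and ATG5 fell with siRNA 2, and the other 3 members were not called. ATG16L1, which brings the ATG12-ATG5 conjugate to the membrane, had 7.948 and 7.997 with siRNA 1 and 8.19 and 8.03 with siRNA 2, against 7.65 and 7.68 in control cells. All 4 siRNA arrays lay above both control arrays. It rose by 0.44 ± 0.077 with siRNA 2 (95% interval 0.26 to 0.62; limma adjusted p = 0.0196) and was 0.30 higher with siRNA 1, which missed the threshold (interval 0.12 to 0.49, adjusted p = 0.0820) but passed it with a filter at the 75th percentile (0.0281) and with limma's prior trended and robust (0.0447). For the mean of both it rose by 0.37 ± 0.067 (limma adjusted p = 0.0245), and the siRNAs differed by -0.14 (siRNA 1 minus siRNA 2, interval -0.32 to 0.044, adjusted p = 0.344). The siRNA 2 call was lost without control replicate 1, control replicate 2 or siRNA 2 replicate 1, with limma adjusted p up to 0.104, and the call for both siRNAs remained only without siRNA 2 replicate 2, with adjusted p up to 0.140 without another array.

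ATG5, which is joined covalently to ATG12, had 8.06 and 8.07 with siRNA 1 and 7.81 and 7.90 with siRNA 2, against 8.17 and 8.19 in control cells. The siRNA 2 arrays were lowest, and all 4 siRNA arrays lay below both controls. ATG5 fell by 0.32 ± 0.068 on the log2 scale with siRNA 2 (95% interval -0.48 to -0.16; limma adjusted p = 0.0376). The call was lost without any 1 of the 6 arrays, with limma adjusted p between 0.0770 and 0.167. With siRNA 1 the difference was -0.11 (adjusted p = 0.437), and the siRNAs differed by 0.21 (siRNA 1 minus siRNA 2, adjusted p = 0.109). For the mean of both siRNAs it was -0.22 (limma adjusted p = 0.0901). A filter at the 75th percentile called ATG5 between the siRNAs (0.0449) and for the mean of both (0.0305). ATG3, which transfers ATG8 proteins to lipid, differed by -0.063 with siRNA 1 and 0.037 with siRNA 2, ATG7, the activating enzyme of both conjugation reactions, by 0.014 and -0.047, and ATG12 by -0.055 and -0.058. The 95% intervals of these 3 genes reached no further than 0.27 from 0 with either siRNA.

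Among ATG8 proteins and cargo receptors, 0 of 3 tested members were called by limma in any of the 4 comparisons, where 4.66% to 9.15% of all genes tested were. With 3 genes, 0 calls cannot be told from these shares. GABARAPL2, an ATG8 protein, had 8.59 and 8.64 with siRNA 1 and 8.65 and 8.61 with siRNA 2, against 8.64 and 8.63 in control cells, the narrowest spread in this class. GABARAPL1, its close relative, differed by -0.026 with siRNA 1 and 0.035 with siRNA 2. MAP1LC3B, the LC3 protein most used as a marker of autophagosomes, lay below the filter at 5.44 and 5.23 with siRNA 1 and 5.32 and 5.29 with siRNA 2, against 5.45 and 5.30 in control cells, so no group stood apart. SQSTM1, the receptor p62, had 8.72 and 8.59 with siRNA 1 and 8.91 and 8.73 with siRNA 2, against 8.82 and 8.71 in control cells. Its siRNA 1 arrays lay below both siRNA 2 arrays, and the difference of -0.17 between the siRNAs (siRNA 1 minus siRNA 2) had a limma adjusted p of 0.339.

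Of the lysosomal enzymes, the cysteine protease cathepsin L, CTSL, differed between the siRNAs, and the other 5 measured enzymes moved by less than 0.1. CTSL had 8.53 and 8.47 with siRNA 1 and 9.03 and 8.99 with siRNA 2, against 8.74 and 8.73 in control cells. Its siRNA 1 arrays lay below both controls and its siRNA 2 arrays above them. The siRNAs differed by -0.51 ± 0.067 (siRNA 1 minus siRNA 2; 95% interval -0.67 to -0.35; limma adjusted p = 0.00504), a call that missed the threshold without siRNA 1 replicate 2 (adjusted p = 0.0505). Against control, the differences of -0.23 with siRNA 1 and 0.27 with siRNA 2 missed the threshold (limma adjusted p = 0.110 and 0.0577), and their mean was 0.021. CTSL with siRNA 2 passed it with the replicate number as a block (adjusted p = 0.0463), after quantile normalization (0.0423), with a trended and robust prior (0.0223) and with a filter at the 75th percentile (0.0166), which also called it with siRNA 1 (0.0430). The aspartic protease CTSD had 11.81 and 11.82 with siRNA 1 and 11.83 and 11.81 with siRNA 2, against 11.85 and 11.78 in control cells, with differences of 0.0031 and 0.0080. Its 95% intervals lay within 0.17 of 0. The carboxypeptidase CTSA, the cysteine proteases CTSB and CTSZ, and HEXA, a subunit of the hexosaminidase that degrades ganglioside GM2, differed from control by -0.070 to 0.084 over both siRNAs.

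In the lysosomal membrane, LAMP1 and LAMP2, the abundant glycoproteins of the limiting membrane, lay within 0.2 of control with either siRNA, and MCOLN1, a calcium channel, did not stand apart. LAMP2 had 9.17 and 9.17 with siRNA 1 and 9.12 and 9.14 with siRNA 2, against 8.92 and 9.03 in control cells. All 4 siRNA arrays lay above both controls, and the difference for the mean of both siRNAs was 0.17 (95% interval 0.030 to 0.32; limma adjusted p = 0.168). LAMP1 had 9.42 and 9.34 with siRNA 1 and 9.13 and 9.15 with siRNA 2, against 9.33 and 9.30 in control cells. Its siRNA 2 arrays were lowest, and its difference between siRNAs of 0.24 (siRNA 1 minus siRNA 2) had a limma adjusted p of 0.0751. That difference passed the threshold with a filter at the 75th percentile and with a trended and robust prior (limma adjusted p down to 0.0262). MCOLN1 differed by -0.065 with siRNA 1 and -0.039 with siRNA 2.

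The 3 members of the TFEB family did not move together. MITF had 5.30 and 5.31 with siRNA 1 and 4.55 and 4.68 with siRNA 2, against 4.99 and 5.11 in control cells. The 3 groups did not overlap, with siRNA 1 highest and siRNA 2 lowest. TFEB had 4.32 and 4.38 with siRNA 1 and 4.76 and 4.72 with siRNA 2, against 4.75 and 4.42 in control cells, so its siRNA 1 arrays were lowest, while siRNA 2 and control overlapped. Both genes lie below the filter and were tested only in the fit with no filter, over 14884 genes. There the siRNAs differed in MITF by 0.69 ± 0.094 (siRNA 1 minus siRNA 2; 95% interval 0.46 to 0.92; limma adjusted p = 0.0343), where 1.31% of all genes were called, and the call was lost without any 1 of the 6 arrays (adjusted p from 0.0830 to 0.213, a check chosen after seeing the data). Against control, MITF differed by 0.26 with siRNA 1 and -0.44 with siRNA 2 (adjusted p = 0.387 and 0.152). TFEB differed between the siRNAs by -0.38 (adjusted p = 0.270), and TFE3, the member of the family above the filter, by -0.0019 (adjusted p = 0.993). TFE3 had 8.83 and 8.55 with siRNA 1 and 8.69 and 8.70 with siRNA 2, against 8.68 and 8.60 in control cells. TFEC, the fourth gene of the family, was at 1.91 and 2.02 with siRNA 1 and 2.07 and 2.02 with siRNA 2, against 2.28 and 1.87 in control cells, far below the filter.

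The 6 members with a CLEAR core and an array row were ATG14, ATG3, CTSA, CTSD, LAMP1 and MCOLN1, whose promoters for ATG14, LAMP1 and MCOLN1 are shown above. In the fit over 7442 genes, ATG14 was called with siRNA 2 and the other 5 were called in none of the 4 comparisons. With siRNA 2 the 5 uncalled genes differed from control by -0.17 for LAMP1, -0.039 for MCOLN1, -0.022 for CTSA, 0.0080 for CTSD and 0.037 for ATG3. A match of letters is a description of the window and not of binding.

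**Figure D3:**
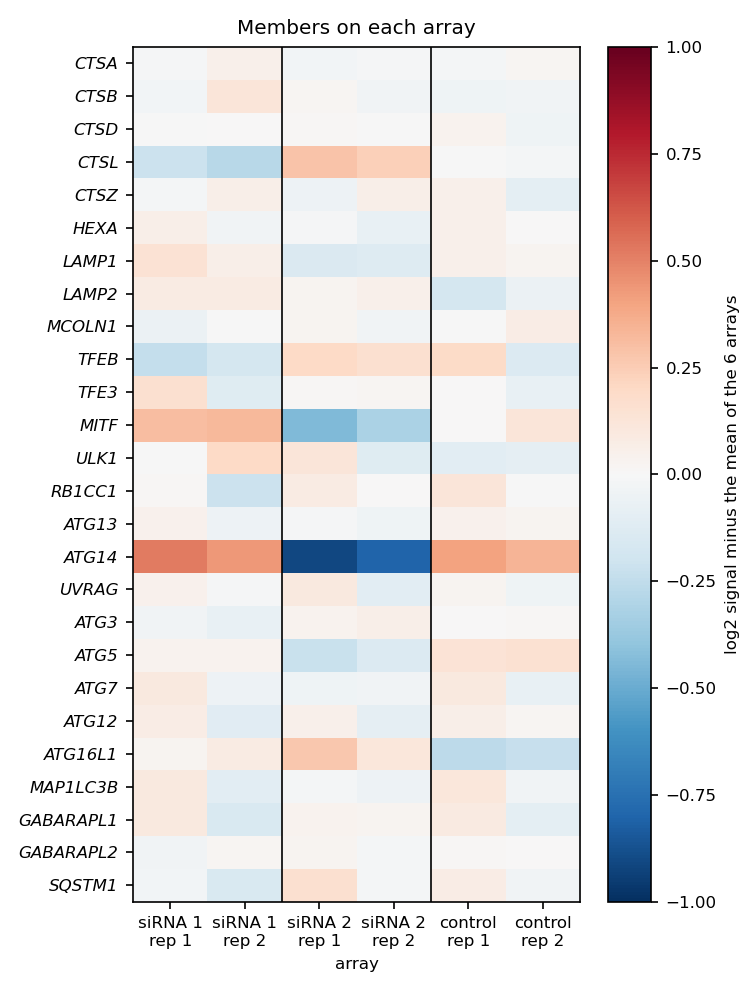
Log2 signal of the 26 members on each array minus that gene's mean over the 6 arrays, with siRNA 1 left, siRNA 2 in the middle and control right; rows follow the order of roles. ATG14 is low on both siRNA 2 arrays, CTSL, TFEB and MITF separate siRNA 1 from siRNA 2, and most other rows are pale.

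Other genes of the pathway were taken from lists of 174 symbols chosen by role, of which 97 had a row and 84 passed the filter. These lists, too, were chosen with earlier results of these data known. All 22 further symbols of the proton pump were without a named row, so no part of the pump could be assessed here. The annotation left 37519 of 53617 rows unnamed, and whether any of them hold pump genes was not examined. Limma called 3 of 84 with siRNA 1 (2 higher, 1 lower), 1 with siRNA 2 (lower), 6 between the siRNAs and 1 for the mean of both, shares of 3.57%, 1.19%, 7.14% and 1.19% beside 4.66%, 6.83%, 9.15% and 5.42% of all genes tested. The median difference of the 97 was 0.045 with siRNA 1 and 0.039 with siRNA 2, against 0.0024 and 0.0080 for all named genes. Among lysosomal enzymes, cathepsin S, CTSS, had 7.55 and 7.58 with siRNA 1 and 6.86 and 6.92 with siRNA 2, against 6.75 and 7.01 in control cells. Only the siRNA 1 arrays stood apart, and CTSS rose with siRNA 1 by 0.69 ± 0.095 (limma adjusted p = 0.0126, but 0.0708 without siRNA 1 replicate 1 and 0.103 without siRNA 1 replicate 2). GM2A, the activator that presents ganglioside GM2 to hexosaminidase, rose with siRNA 1 by 0.45 ± 0.078 (adjusted p = 0.0277), a call lost without any 1 of the 6 arrays (0.0510 to 0.170). With siRNA 2, CTSS and GM2A differed by 0.014 and 0.077, and the siRNAs differed in each by 0.67 and 0.37 (limma adjusted p = 0.00695 and 0.0302). Between the siRNAs, the CTSS call was lost without siRNA 1 replicate 2 (adjusted p = 0.0578), and the GM2A call without any 1 of the 4 siRNA arrays (0.0741 to 0.168).

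Among the genes of membrane formation, WDR45B, a lipid-binding protein of the WIPI family, had 9.90 and 9.81 with siRNA 1 and 9.43 and 9.33 with siRNA 2, against 9.79 and 9.68 in control cells. It fell by 0.36 on the log2 scale with siRNA 2 (interval -0.54 to -0.17; limma adjusted p = 0.0451), a call lost without any 1 of the 6 arrays (0.0799 to 0.209). The siRNA 2 call of WDR45B was also lost with no filter, quantile normalization, array weights and a fit of only the groups compared. Between the siRNAs, WDR45B differed by 0.47 (siRNA 1 minus siRNA 2, limma adjusted p = 0.0133), a call lost with no filter and without some single arrays. MAP1LC3B2, a near-identical copy of MAP1LC3B whose probes may not tell them apart, had 5.49 and 5.51 with siRNA 1 and 5.82 and 5.86 with siRNA 2, against 5.86 and 5.86 in control cells. It fell by 0.36 on the log2 scale with siRNA 1 (limma adjusted p = 0.0311, and 0.0573 to 0.159 without any 1 array). GABARAP, another ATG8 protein, differed by 0.022 with siRNA 1 and 0.039 with siRNA 2. HGSNAT, the acetyltransferase of heparan sulfate breakdown, chosen after its values were seen, was called for the mean of both siRNAs, at 0.36 ± 0.074 (limma adjusted p = 0.0372), and missed the threshold at 0.37 with siRNA 1 and 0.36 with siRNA 2 (0.0625 and 0.0554). Each siRNA alone passed it under 4 alternatives, the 75th percentile filter, quantile normalization, the replicate block and the trended and robust prior (adjusted p from 0.0149 to 0.0463). The call for both was lost without any 1 of the 6 arrays (0.0619 to 0.196).

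The filter on dim genes left out the one with the largest rise among the 97 other pathway genes with each siRNA. TP53INP1, a p53-induced protein that binds ATG8 proteins and takes part in autophagy, was chosen after its values were seen. It had 5.64 and 5.48 with siRNA 1 and 5.74 and 5.66 with siRNA 2, against 4.54 and 4.50 in control cells. All 4 siRNA arrays lay more than 0.9 above both controls. In the fit with no filter it rose by 1.04 ± 0.095 with siRNA 1 and by 1.17 ± 0.095 with siRNA 2 (limma adjusted p = 0.0276 and 0.0115), where 0.262% and 0.934% of all genes were called. Without each array in turn, a check chosen after seeing the data, its limma adjusted p was 0.106 to 0.234 with siRNA 1 (called in 0 of 6) and 0.0413 to 0.117 with siRNA 2 (called in 2 of 6), and its difference from control stayed between 0.95 and 1.21. SUMF1, the enzyme that activates sulfatases, also lay below the filter and was chosen after its values were seen, with 4.79 and 4.74 with siRNA 1 and 4.23 and 4.25 with siRNA 2, against 4.82 and 4.86 in control cells. It fell by 0.60 on the log2 scale with siRNA 2 in that fit (limma adjusted p = 0.0406, and 0.115 to 0.261 without any 1 array).

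**Figure D4:**
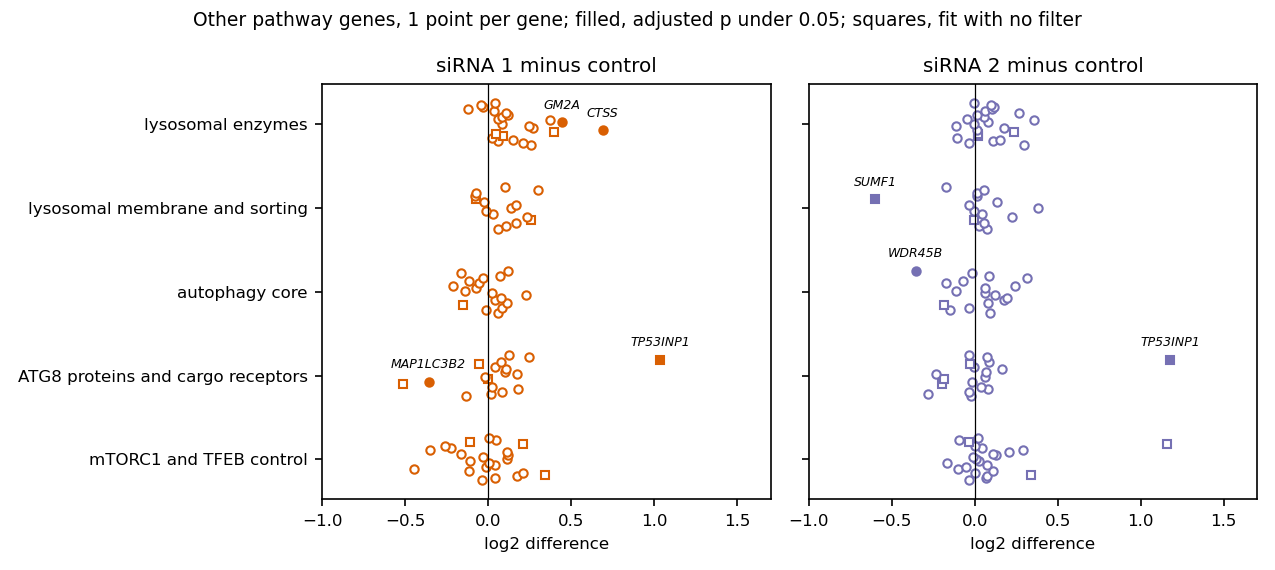
Differences in log2 signal for the 97 other pathway genes by list, with siRNA 1 minus control left and siRNA 2 minus control right; each point is a gene, filled and named where the adjusted p was under 0.05, and squares come from the fit with no filter. TP53INP1 lies above 1 with both siRNAs, while the called genes CTSS, GM2A and MAP1LC3B2 appear with siRNA 1 and WDR45B and SUMF1 with siRNA 2. SESN3, below the filter and not called, lies at 1.16 with siRNA 2.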

How the data were processed

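Total RNA from 6 samples of A549 cells, 2 per group, was amplified, labelled and hybridised to Affymetrix whole-transcript arrays, per the labels' protocols. The deposited values are log2 signals, and the submitters' processing notes credit RMA for them; the version the authors used is not given in the sources used here. No further normalization was applied. RMA understates fold changes of dim transcripts. The number of arrays limits the precision.

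The table held 53617 rows, of which the platform annotation named 16098 with 1 symbol each and left 37519 unnamed. All 16098 gene identifiers were found in RefSeq (GRCh38.p14). The rows stood for 14884 genes, and for the 779 with several rows the brightest was used. Every member had 1 row. A fit with limma 3.58.1 in R 4.3.3 over all 6 arrays and 3 groups had 3 residual and 4.09 prior degrees of freedom, and p-values were adjusted (Benjamini-Hochberg) over 7442 genes. The fit was tested on simulated data. The members and lists were chosen with earlier results of these data known. All members could be named, of each other list the called genes with the 3 largest differences per direction. Alternatives were other filters, rows, normalizations, priors, weights, the replicate block and each array left out. Figures used matplotlib 3.10.9.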

Additional observations from a re-analysis of the deposited data

Results flagged for a closer look

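In the test of siRNA 1 against siRNA 2 itself, ATG14 and CTSL were called, 2 of 23 members (8.7%), where 9.15% of all genes tested were. This share is near that over all genes. MITF was called only in the fit with no filter, where 1.31% of all genes were called and CTSL was not. How far these calls depend on single arrays is given above. ATG14 differed by 1.33, with 7.37 and 7.29 for siRNA 1 and 5.94 and 6.05 for siRNA 2. CTSL differed by -0.51, with 8.53 and 8.47 for siRNA 1 and 9.03 and 8.99 for siRNA 2. MITF, tested only in the fit with no filter, differed by 0.69, with 5.30 and 5.31 for siRNA 1 and 4.55 and 4.68 for siRNA 2. In CTSL and MITF the control arrays lay between the siRNA groups.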

How the results depend on the processing

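The single-gene results repeated under another setting were 37 pairs of a gene and a comparison that were called in any setting. Of the repeats, 359 kept their direction and their side of the threshold, 131 lost a call, 22 gained one and 0 turned direction. As the pairs were picked by a call, turns were unlikely from the start, and the 0 is no measure of stability. ATG14 with siRNA 2 stayed called in the 15 settings that tested it (its mean is under the 75th percentile filter), with differences of -1.28 to -1.17. The cause of the moves below was not tested. Against 0 members called with siRNA 1, the 75th percentile filter gave 2, a trended and robust prior gave 1, and leaving out 1 array gave 0 to 0. Against 3 members with siRNA 2, no filter gave 1 and leaving out 1 array gave 1 to 2. Between the siRNAs, leaving out 1 array gave 1 to 2 members against 2, the 1 without siRNA 1 replicate 2. For both siRNAs, no filter gave 0 members against 2, and leaving out 1 array gave 0 to 2, the 0 without control replicate 1. With no filter, the calls of ATG16L1 and ATG5 with siRNA 2, of CTSL between the siRNAs and of ATG14 and ATG16L1 for both siRNAs were lost. The share of all genes called fell there too. It went from 4.66% to 0.262% with siRNA 1 and from 6.83% to 0.934% with siRNA 2. Between the siRNAs it went from 9.15% to 1.31%, and for both siRNAs from 5.42% to 0.175%. Shares over all genes under the other alternatives are not given here.

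Among other pathway genes with siRNA 1 (3 called), no filter gave 1, fitting only the groups compared 1, the replicate block 5, and leaving out 1 array 0 to 1. With siRNA 2 (1 called), no filter gave 2, the 75th percentile filter 4, the replicate block 3, the trended and robust prior 5, array weights 0, and leaving out 1 array 0 to 1. Between the siRNAs (6 called), no filter gave 1, the replicate block 10, and leaving out 1 array 0 to 6. For both siRNAs (1 called), the 75th percentile filter gave 3, the replicate block 2, the trended and robust prior 3, and leaving out 1 array 0 to 0. Deviations of same-numbered arrays from their group means correlated at 0.251 (siRNA 1 and siRNA 2), 0.265 (siRNA 1 and control) and 0.205 (siRNA 2 and control), but the labels tie the numbers to no shared culture or day. The replicate block gave 4 members with siRNA 2, by adding CTSL, 2 between the siRNAs and 2 for both.

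With 2 arrays per group, most calls of single genes were lost when some single array was left out. Leaving out any array also lowers the fit's 3 residual degrees of freedom, and the part this had was not tested. ATG5 with siRNA 2 lost its call even without a siRNA 1 array, which has no part in that difference. Dim genes such as MITF, TFEB and MAP1LC3B could be set only against a weaker fit. Quantile normalization and median centring moved array values by at most 0.013.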
